A study of Equus caballus with 31 samples.

Results

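The cytokine TNF, its receptors and the feedback genes of its main transcription factor, NF-kappa-B, were followed in horses with osteoarthritis (OA) and in healthy horses, in the cells of the joint fluid (synovial fluid) and in blood mononuclear cells. The set was defined by gene symbol and held 10 genes: TNF, TNFRSF1A, TNFRSF1B, TRAF1, BIRC3, NFKB1, NFKB2, RELB, NFKBIA and TNFAIP3. All 10 were among the 17538 genes of the fluid table and the 17410 genes of the blood table, 16799 of which were in both tables, and all 10 passed the filter on low values in each tissue.

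RNA sequencing had been done on fluid cells of 5 OA and 11 healthy horses and on blood mononuclear cells (PBMC) of 6 OA and 9 healthy horses. All animals were labelled wild type and had been classed by lameness, radiographs and the response to analgesia of the joint, with no recent medication or joint injection. Fluid cells had been collected as a pellet after digestion of the fluid with hyaluronidase, and both sample types were labelled as mixed mononuclear cells. The labels used here give no age, sex or batch. Names that begin with OA_ are OA horses and names that begin with ORC_ are healthy horses, as in the sample titles, and 13 horses (5 OA and 8 healthy) gave both samples.

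TNF is made mainly by activated macrophages and lymphocytes and acts through TNFRSF1A, which most cells carry, and TNFRSF1B, which is found mostly on leukocytes. Receptor binding frees NF-kappa-B dimers from inhibitors of the I-kappa-B family, and the dimers enter the nucleus and switch on inflammatory genes. Among those target genes are brakes on the pathway itself, such as the inhibitor NFKBIA and the ubiquitin-editing enzyme TNFAIP3, and in osteoarthritis TNF is one of the cytokines studied as a driver of cartilage loss.

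Values are read counts normalized by the authors to a size factor per library, so levels are not scaled for gene length and are compared here only within a gene. Fluid libraries held between 25.9 and 36.3 M reads and blood libraries between 23.9 and 34.8 M reads, and in blood OA libraries were deeper (33.5 ± 1.14 M reads, SD, n = 6) than healthy ones (27.5 ± 2.31 M reads, SD, n = 9). A gene was called where limma's adjusted p, over all genes of the tissue, was below 0.05, and changes are differences of mean log2(value + 1), OA minus healthy, each with its SE. Several libraries stood apart before any gene of the set was considered. Fluid of ORC_202 had a mean log2 level of immediate early and heat shock genes of 13.23, against at most 12.08 in the other healthy fluids, and the lowest T cell marker mean of the healthy fluids. Fluid of OA_9570 had a synovial fibroblast marker mean of 5.03, whereas the other 4 OA fluids had means of 11.44 to 13.50. Although the fluid cells were labelled mononuclear, the fibroblast markers summed to between 1574 and 686630 normalized counts in OA fluid and between 871 and 136030 in healthy fluid. In blood the 13 fibroblast markers found summed to at most 804 in OA and 921 in healthy horses, and T cell markers to at least 56361 in OA and 68351 in healthy horses.

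The comparison of fluid asked how the joint cells of OA horses differ from those of healthy horses. In OA fluid 3 of the 10 genes were lower, namely TNF, BIRC3 and TNFAIP3, a share of 30.0%, whereas 13.6% of all 13885 genes tested were called lower and 28.1% in either direction. None of the 10 was called higher, against 14.4% of all genes, and none had a positive change at an unadjusted p under 0.05 in limma. EdgeR and DESeq2 called the same 3 genes lower and 0 higher. Changes were negative for 7 of the 10 genes, with a median of -0.43, and the median over all genes was 0.08. Scaling the libraries to equal totals moved the median of all genes to -0.12 and the calls to 1311 higher and 2764 lower, beside 2006 higher and 1893 lower with the authors' size factors, and TRAF1 and NFKBIA were then called lower too. In bulk samples, fewer cells of a type and less RNA per cell cannot be told apart, and this holds for every result given here.

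TNF itself, on chromosome 20 (chr20:32223512-32225424 of the EquCab3.0 build), had normalized counts of 298, 411, 326, 232 and 491 in fluid of OA_1038, OA_2615, OA_3850, OA_9350 and OA_9570, against a lowest value of 318, a median of 703 and a highest value of 3087 in healthy fluid. All 5 OA fluids were below the healthy median, and 3 of the 11 healthy fluids lay below the highest OA value, so the groups overlapped. TNF averaged 352 ± 101 in OA fluid (SD, n = 5) and 890.1 ± 768 in healthy fluid (SD, n = 11). The change of -1.09 (SE 0.38, adjusted p = 0.0415) was just past the threshold. The healthy spread was set largely by ORC_202, at 3087, and without that horse the change was -0.88 (adjusted p = 0.0246). The call of TNF was kept in 6 of 16 fits that left out 1 library each, and it ended without OA_1038 (adjusted p = 0.0829), OA_2615 (0.064), OA_3850 (0.0811), OA_9350 (0.109), ORC_188 (0.0533), ORC_192 (0.0641), ORC_197 (0.0545), ORC_201 (0.0512), ORC_208 (0.0534) or ORC_209 (0.0637). The change itself ranged from -1.22 to -0.88 over these fits.

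Neither TNF receptor was called in fluid. TNFRSF1A (chr6:34913158-34924509), the receptor with a death domain, had normalized counts of 2989, 6631, 7550.2, 8226 and 11038 in the 5 OA fluids in the order above, against 3964 to 8466 with a median of 4372 in healthy fluid. OA fluids thus held both the lowest value, in OA_1038, and the highest, in OA_9570, and all 11 healthy fluids lay between them. The change of TNFRSF1A was 0.46 (SE 0.25, 95% interval -0.08 to 0.99, adjusted p = 0.181). Without OA_1038 it was 0.75 and was called (adjusted p = 0.0209). TNFRSF1B (chr2:39737057-39770603), the receptor without a death domain, had 10923, 20452, 17096, 15778 and 41820.0 in OA fluid, against 7833 to 32300.0 with a median of 18410.0 in healthy fluid. Only OA_9570 lay outside the healthy range. Its change of 0.11 (SE 0.32, 95% interval -0.55 to 0.78, adjusted p = 0.809) turned to -0.17 without OA_9570.

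Of the receptor-bound proteins, BIRC3 was lower in OA fluid and TRAF1 was not called. BIRC3 (chr7:12772369-12821261), the ubiquitin ligase cIAP2 that is recruited to the receptor through TRAF proteins and is itself an NF-kappa-B target, had 8098, 4442, 5373, 5126 and 3288 normalized counts in OA fluid, against a lowest value of 7098, a median of 10760.0 and a highest value of 16088 in healthy fluid. In 4 of the 5 OA fluids BIRC3 was below every healthy fluid, and only OA_1038 reached the 2 lowest healthy values. Its mean was 5265 ± 1778 in OA fluid (SD, n = 5) and 11166 ± 2881 in healthy fluid (SD, n = 11), a change of -1.10 (SE 0.22, adjusted p = 0.0023) or 2.15-fold lower in OA. The call of BIRC3 was kept in all 16 fits that left out 1 library, with adjusted p-values of 0.0013 to 0.0092. TRAF1 (chr25:25052425-25089766), an adaptor that links the receptors to the cIAP proteins, had 4861, 2732, 2786, 1419 and 2081 in OA fluid, against 2824 to 5319 with a median of 4052 in healthy fluid. In 4 OA fluids TRAF1 was below every healthy fluid, while OA_1038 was near the healthy maximum. Its change was -0.55 (SE 0.23, 95% interval -1.04 to -0.07, adjusted p = 0.078), and it was called without OA_1038 (-0.79, adjusted p = 0.0154).

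The 3 NF-kappa-B subunits of the set were not called in fluid. NFKB1 (chr3:37926954-38031852), which encodes the p105 precursor of the p50 subunit, had 3917, 3710.2, 6616, 6977 and 4631 in OA fluid, against 3486 to 6265 with a median of 4320.3 in healthy fluid. OA_3850 and OA_9350 were above every healthy fluid and the other 3 lay within the healthy range, and the change was 0.23 (SE 0.18, 95% interval -0.16 to 0.61, adjusted p = 0.368). NFKB2 (chr1:27918892-27927266), the p100 precursor of p52 in the non-canonical branch, had 5614, 2594, 4766, 4902 and 7594 in OA fluid, against 4149 to 8596 with a median of 5488 in healthy fluid. Only OA_2615 lay outside the healthy range, and the change was -0.29 (SE 0.24, 95% interval -0.79 to 0.22, adjusted p = 0.380). RELB (chr10:15825050-15849062), the partner of p52, had 2216, 1128, 1606, 2522 and 2819 in OA fluid, against 1094 to 4390.4 with a median of 2561 in healthy fluid. All OA values of RELB were within the healthy range, with a change of -0.30 (SE 0.28, 95% interval -0.89 to 0.29, adjusted p = 0.439).

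Of the brakes, TNFAIP3 was lower in OA fluid. TNFAIP3 (chr10:84269978-84280743), the enzyme A20 that removes activating ubiquitin chains below the receptor, had 4116, 1229, 4029, 3609.6 and 2547 in OA fluid, against a lowest value of 2610.3, a median of 8084 and a highest value of 21697 in healthy fluid. Every OA fluid was at or below 4116, and 9 of the 11 healthy fluids were above that level, the exceptions being ORC_196 (2610.3) and ORC_202 (3664). The mean was 3106 ± 1221 in OA fluid (SD, n = 5) and 8804 ± 5249 in healthy fluid (SD, n = 11). The change of -1.41 (SE 0.40, adjusted p = 0.0158), or 2.66-fold lower in OA, was the largest fall of the set. Its call was kept in 15 of 16 fits that left out 1 library, and it ended without OA_2615, whose value was the lowest, at a change of -1.11 (adjusted p = 0.0599). NFKBIA (chr1:174103222-174106498), the inhibitor I-kappa-B-alpha that is resynthesized after each round of activation, had 5944, 7668, 7242, 8794 and 14337 in OA fluid, against 7782 to 24786 with a median of 12097 in healthy fluid. In 3 OA fluids NFKBIA was below every healthy fluid, whereas OA_9570 was above the healthy median. The change was -0.60 (SE 0.27, 95% interval -1.17 to -0.03, adjusted p = 0.105), and without OA_9570 it was -0.79 and called (adjusted p = 0.0352).

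**Figure D1:**
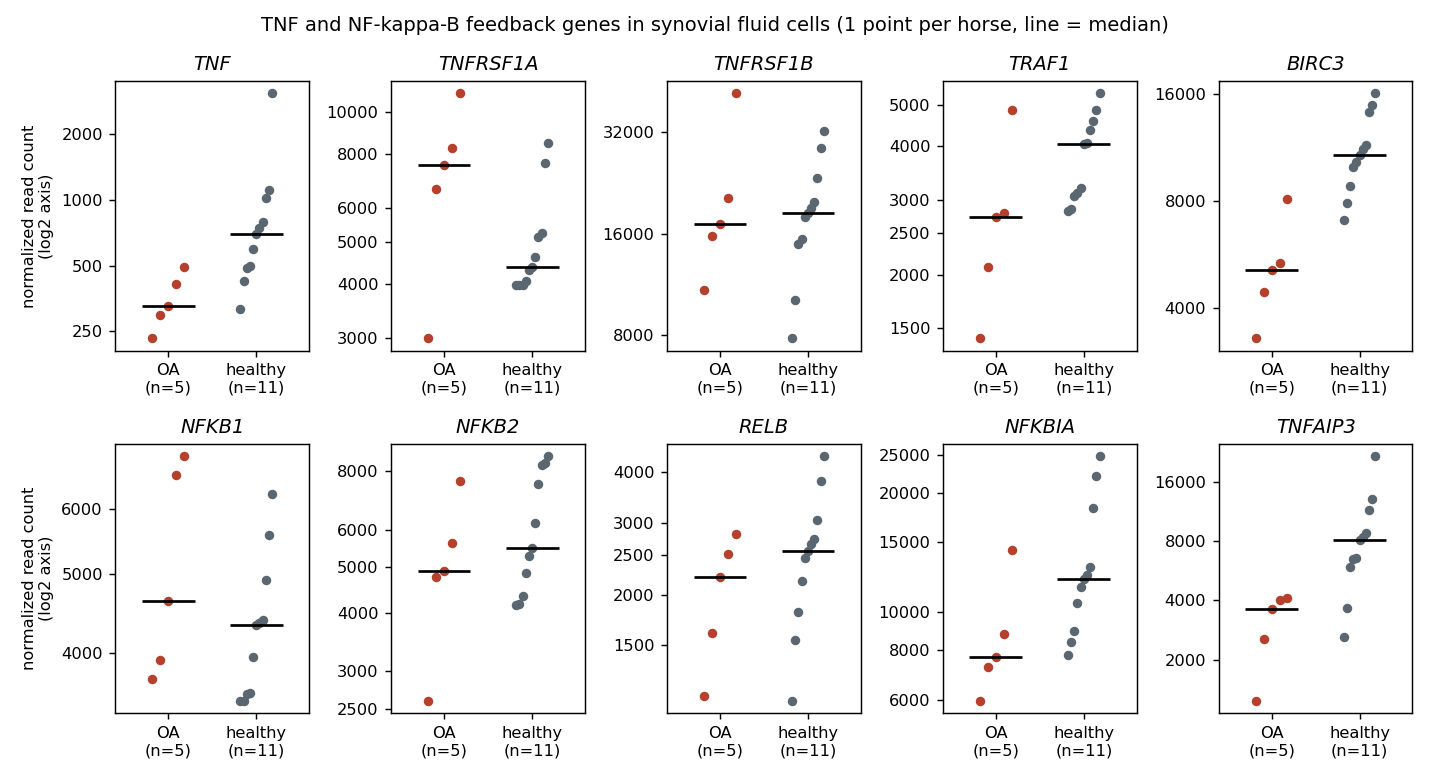
Normalized read counts of the 10 genes in synovial fluid cells, on log2 axes, with 1 point per horse and a line at the group median, for 5 OA and 11 healthy horses. BIRC3 was below all healthy values in 4 of 5 OA fluids, all OA values of TNF and TNFAIP3 lay below the healthy medians of 703 and 8084, and TNFRSF1B reached 41820.0 in 1 OA fluid.

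Markers of T cells moved with these falls. Of 15 T cell markers 14 were lower in OA fluid, against 13.6% of all genes, with a median change of -2.04. Their summed level was 8775 to 38293 in OA fluid and 38685 to 141590.0 in healthy fluid. The groups did not overlap in that sum, and no marker was at 0 in all libraries. Of 13 cytotoxic and NK cell markers 12 were lower, against the same share of all genes. Together the markers summed to 10359 to 32120.0 in OA fluid and 39459 to 158060.0 in healthy fluid. With the T cell marker mean as a covariate no gene of the 13885 was called, and the changes were -0.39 for TNFAIP3 (adjusted p = 0.858), -0.48 for BIRC3 (adjusted p = 0.608) and -2.12 for TNF (adjusted p = 0.257). As T cell marker levels did not overlap between the groups, the lower level of T cell RNA and the disease group cannot be told apart in these libraries. This holds for TNF, TNFAIP3, BIRC3 and every other gene of the fluid. Immediate early and heat shock genes, which respond to sample handling as well as to stimulation, moved the other way. Of 24 such genes 10 were higher and 1 was lower in OA fluid, beside 14.4% higher and 13.6% lower of all genes. Their summed levels were 202780.0 to 452940.0 in OA and 119790.0 to 625650.0 in healthy fluid. Their mean log2 level, used as the covariate, was 12.25 to 13.28 in OA fluid and 10.78 to 13.23 in healthy fluid. Only ORC_202 (13.23) was within the OA range, and the other healthy fluids were at most at 12.08. Apart from ORC_202, the level of these genes and the disease group cannot be told apart in fluid. With the mean of these genes as a covariate no gene was called. The changes were then -2.14 for TNF (adjusted p = 0.0616), -1.16 for TNFAIP3 (adjusted p = 0.254) and -1.02 for BIRC3 (adjusted p = 0.106). Of 14 synovial fibroblast markers 4 were higher in OA fluid, beside 14.4% of all genes. With the fibroblast marker mean as a covariate BIRC3 was called (-1.09, adjusted p = 0.0196) while TNFAIP3 (-1.56, adjusted p = 0.0512) and TNF (-1.05, adjusted p = 0.149) were not. Monocyte markers had 1 of 9 higher in OA fluid, which is not above the 14.4% of all genes. With the monocyte marker mean as a covariate BIRC3 (-0.77), NFKBIA (-0.99) and TNF (-1.51) were called, at adjusted p-values of 0.0253, 0.0253 and 0.0258, and TNFAIP3 (-1.21, adjusted p = 0.0875) was not. TNFAIP3 was thus not called with any of the 4 marker covariates.

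No horse was the highest or the lowest fluid of its group for all 10 genes, and agreement of the order across genes was not tested. OA_9570 was the highest OA fluid for 6 of the 10 genes and OA_2615 the lowest for 4, while among healthy fluids ORC_202 was the highest for 4 genes. Without OA_9570 and ORC_202 together, TNF (-1.01, adjusted p = 0.0149), BIRC3 (-0.995, adjusted p = 0.0028), TNFAIP3 (-1.48, adjusted p = 0.0151) and NFKBIA (-0.69, adjusted p = 0.036) were called lower.

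In blood the receptors differed between the groups and the feedback genes were not called. TNFRSF1A and TNFRSF1B were higher in OA blood, 2 of 10 genes, whereas 3.20% of all 13072 genes tested were called higher and 5.40% in either direction. None of the 10 was called lower in limma, against 2.20% of all genes, with 0 at an unadjusted p under 0.05, 0 by edgeR and 0 by DESeq2. Both of those tools called the same 2 receptors higher. The calls over all genes of blood depended on single horses: limma called 16 genes higher and 17 lower without OA_3850, 17 higher and 18 lower without OA_9350, and 14 higher and 17 lower without OA_9570, against 418 higher and 288 lower with all libraries, and in each of these 3 fits neither receptor was called. The median change of the 10 genes was -0.06, beside 0.02 for all genes.

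TNFRSF1B had a lowest normalized count of 10556, a median of 14468 and a highest of 18053 in OA blood, against 5958, 9484 and 11827 in healthy blood. In 5 of 6 OA horses TNFRSF1B was above every healthy horse, and OA_4110 was the exception. The means were 14395 ± 2745 in OA blood (SD, n = 6) and 9357 ± 1821 in healthy blood (SD, n = 9), with a change of 0.63 (SE 0.15, adjusted p = 0.0307) or 1.54-fold higher in OA. The call was kept in 11 of 15 fits that left out 1 library and ended without OA_3850 (adjusted p = 0.0915), OA_9350 (0.0863), OA_9570 (0.0905) or ORC_207 (0.057), with changes of 0.55 to 0.71 over all of them. TNFRSF1A had 3615, 4911 and 6817 as lowest, median and highest values in OA blood, against 2313, 3264 and 4199.9 in healthy blood. OA_3850, OA_9350 and OA_9570 were above every healthy horse and the other 3 OA horses lay in the upper part of the healthy range, all above the healthy median. The change of TNFRSF1A was 0.57 (SE 0.16, adjusted p = 0.0453) or 1.48-fold higher in OA. It was kept in 5 of 15 fits that left out 1 library, and it ended without OA_3850 (adjusted p = 0.123), OA_9350 (0.126), OA_9570 (0.129), ORC_188 (0.06), ORC_192 (0.0608), ORC_197 (0.0537), ORC_200 (0.0579), ORC_207 (0.0776), ORC_208 (0.0802) or ORC_209 (0.0623).

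Both receptors are carried by monocytes, and monocyte markers moved with them. Of 9 monocyte markers 3 were higher in OA blood and none was lower, beside 3.20% higher and 2.20% lower of all genes. Their median change was 0.85, and they summed to 106810.0 to 253180.0 in OA blood and 59836 to 124060.0 in healthy blood. The mean log2 levels of the monocyte markers did not overlap between the groups, at 11.95 to 13.03 in OA blood and 10.90 to 11.94 in healthy blood. With that mean as a covariate no gene was called in blood, and the changes were -0.003 for TNFRSF1B (adjusted p = 0.998) and -0.16 for TNFRSF1A (adjusted p = 0.955). A larger monocyte share and a higher receptor level per monocyte cannot be told apart here. Of 15 T cell markers 0 were called in blood, beside 5.40% of all genes. With the T cell marker mean as a covariate the receptor changes were 0.54 for TNFRSF1B (adjusted p = 0.0907) and 0.46 for TNFRSF1A (adjusted p = 0.128).

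The ligand, the adaptors and the subunits had small changes in blood. TNF had 153, 203 and 329.5 as lowest, median and highest normalized counts in OA blood, against 103, 243 and 337 in healthy blood, a change of -0.02 (SE 0.24, 95% interval -0.53 to 0.49, adjusted p = 0.962). The groups overlapped almost entirely. BIRC3 had 6933, 10129 and 12343 in OA blood, against 8898, 10629 and 13123 in healthy blood, a change of -0.14 (95% interval -0.40 to 0.13, adjusted p = 0.511). TRAF1 (-0.11, adjusted p = 0.509), NFKB1 (-0.11, adjusted p = 0.513), NFKB2 (-0.18, adjusted p = 0.514) and RELB (-0.27, adjusted p = 0.373) had changes below 0 that did not pass the test. RELB was the member of this group whose OA values all lay below the healthy median of 2883, at 1912 to 2852, against 1640.0 to 4582 in healthy blood.

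The brakes TNFAIP3 and NFKBIA were marked in blood by 1 horse. TNFAIP3 was 5635 in OA_1038 and 1580.0 to 2114 in the other 5 OA horses, against 1515 to 2506 in healthy blood. NFKBIA was 21613 in OA_1038 and 4882 to 8516 in the other OA horses, against 5319 to 11696 in healthy blood, where ORC_202 was the highest. Apart from OA_1038 the OA values overlapped with the healthy values for both genes. The changes were 0.22 for TNFAIP3 (SE 0.21, adjusted p = 0.530) and 0.15 for NFKBIA (SE 0.26, adjusted p = 0.741), and without OA_1038 they were -0.04 and -0.15 (adjusted p = 0.840 and 0.610). The immediate early and heat shock mean was 11.81 in blood of OA_1038, but it was higher still in OA_9350 (12.02) and ORC_202 (12.08), and its part in the values of OA_1038 was not tested. Fluid of OA_1038 had the lowest NFKBIA of the OA fluids.

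**Figure D2:**
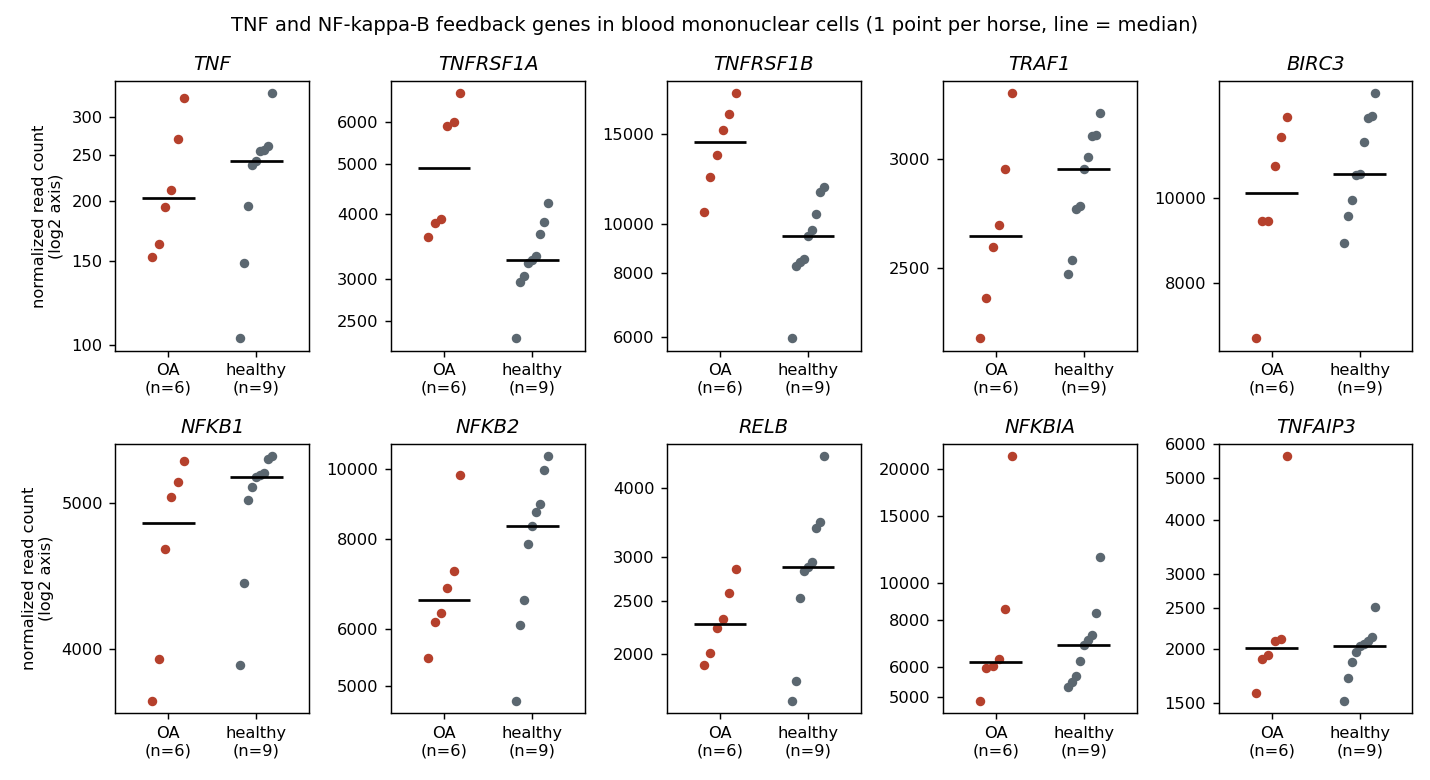
Normalized read counts of the 10 genes in blood mononuclear cells, on log2 axes, with 1 point per horse and a line at the group median, for 6 OA and 9 healthy horses. TNFRSF1B was above all healthy values in 5 of 6 OA horses, and 1 OA horse stood far above the others in NFKBIA (21613) and TNFAIP3 (5635).

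Whether OA changed these genes differently in fluid and blood was tested directly, as the change in fluid minus the change in blood. TNFAIP3 (-1.63, SE 0.46, adjusted p = 0.0118) and BIRC3 (-0.97, SE 0.25, adjusted p = 0.0073) had a lower change in fluid, 2 of 10 genes, beside 22.3% of 12733 genes called in either direction, 11.9% lower and 10.3% higher. The share of the set is close to that background. Over all genes 1315 differences were called higher and 1519 lower, and 797 higher and 2255 lower after scaling to equal totals. Both calls were kept in all 18 fits that left out 1 horse. TNF differed by -1.07 (SE 0.47, adjusted p = 0.101), with a change of -1.09 in fluid and -0.02 in blood. In the 13 horses with both samples, the differences within a horse (the replicate block) gave -1.19 for TNF (adjusted p = 0.0326), which was then called, beside -1.81 for TNFAIP3 (adjusted p = 0.0082) and -0.97 for BIRC3 (adjusted p = 0.0068). The receptors, which were called higher in blood and were not called in fluid, had differences of -0.11 for TNFRSF1A (95% interval -0.74 to 0.52, adjusted p = 0.830) and -0.51 for TNFRSF1B (95% interval -1.21 to 0.19, adjusted p = 0.289). A difference between the tissues was therefore not shown for either receptor. NFKBIA (-0.75, adjusted p = 0.224), TRAF1 (-0.45, adjusted p = 0.168), NFKB1 (0.34, adjusted p = 0.238), NFKB2 (-0.11, adjusted p = 0.840) and RELB (-0.03, adjusted p = 0.968) were not called.

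**Figure D3:**
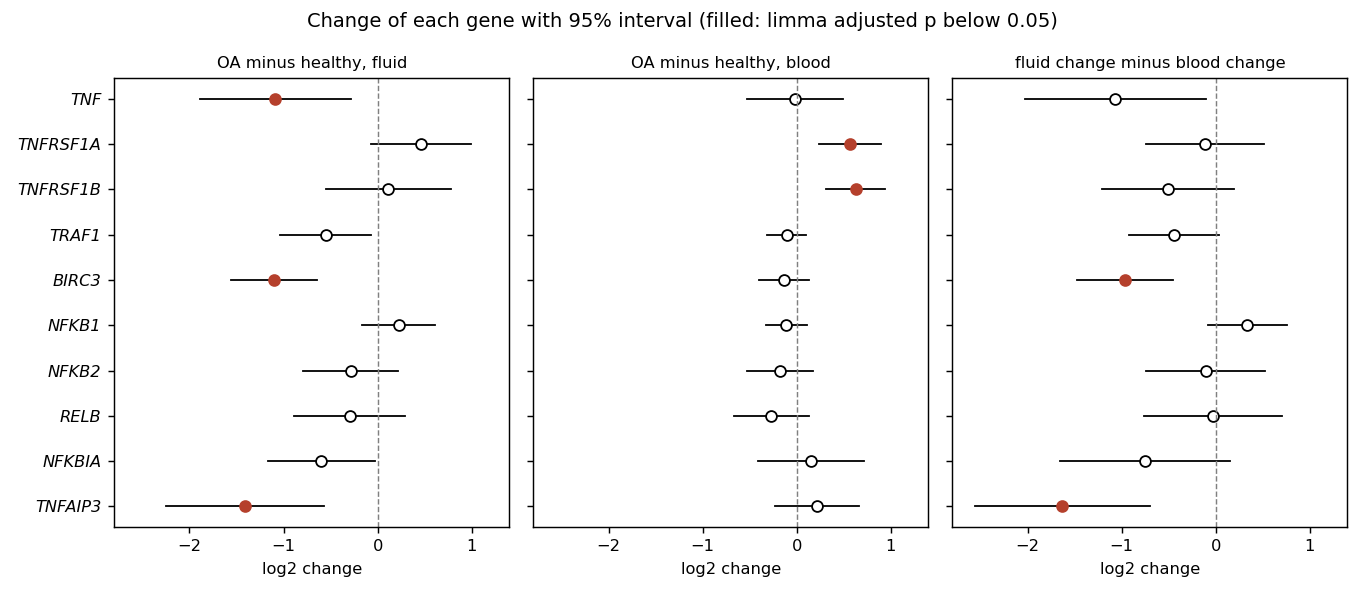
Log2 change of each of the 10 genes (OA minus healthy) in fluid, in blood, and as the change in fluid minus the change in blood, with 95% intervals and filled points where limma's adjusted p was below 0.05. TNF, BIRC3 and TNFAIP3 were lower in fluid, both receptors were higher in blood, and TNFAIP3 (-1.63) and BIRC3 (-0.97) differed between the tissues.

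**Figure D4:**
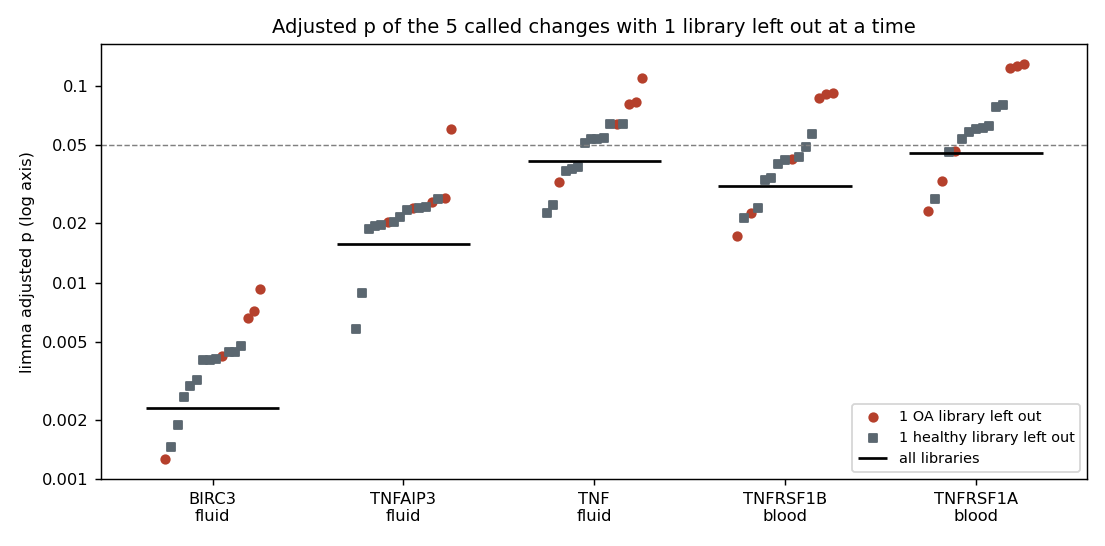
Adjusted p-values (log axis) of the 5 called changes when 1 library was left out at a time, with circles for OA libraries, squares for healthy libraries, a bar for all libraries and a dashed line at 0.05. BIRC3 stayed below the line in all 16 fits, and TNF and TNFRSF1A crossed it in 10 fits each.

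Ratios within a library compare 2 genes with no scaling between libraries. The balance of the receptors, log2 TNFRSF1B over TNFRSF1A, was 1.51 ± 0.43 in OA fluid (SD, n = 5) and 1.85 ± 0.63 in healthy fluid (SD, n = 11), with a two-sided exact permutation p = 0.29. The ratio of the non-canonical to the canonical precursor, log2 NFKB2 over NFKB1, was -0.05 ± 0.62 in OA fluid and 0.46 ± 0.46 in healthy fluid (exact permutation p = 0.085). The ratio of the brakes, log2 TNFAIP3 over NFKBIA, was -1.56 ± 0.96 in OA fluid and -0.75 ± 0.88 in healthy fluid (exact permutation p = 0.12). In blood the OA minus healthy differences of these ratios were 0.06, -0.07 and 0.07, and over the 6 tests no Benjamini-Hochberg adjusted p was below 0.359. In all 6 ratios the difference between the groups was smaller than the larger of the 2 SDs.

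Across healthy horses the 10 genes did not vary as 1 block. Of the 45 pairs of genes 26 had a positive Pearson correlation of log2 values in healthy fluid (n = 11), with a median r of 0.16, and 21 were positive in healthy blood (n = 9), with a median r of -0.07. No pair passed a permutation test in fluid after adjustment over the 45 pairs, and the highest correlation there was that of BIRC3 and TRAF1 (r = 0.75, p = 0.0085, adjusted p = 0.225; rho = 0.80, p = 0.0046, adjusted p = 0.159), with r = 0.70 without the 2 fluids farthest from the median of BIRC3. In blood 3 pairs passed by Pearson's r, each with an adjusted p of 0.0153 in the exact permutation test, and 0 passed by Spearman's rho, where the smallest adjusted p was 0.0676. NFKB2 and RELB, the partners of the non-canonical dimer, had r = 0.89 (p = 0.001) and rho = 0.90 (p = 0.002), with r = 0.66 when ORC_202 and ORC_205 were left out. BIRC3 and NFKB1 had r = 0.81 (p = 0.00077) and rho = 0.87 (p = 0.0045), with r = 0.69 without ORC_202 and ORC_208. NFKBIA and TRAF1 varied in opposite directions, with r = -0.89 (p = 0.00061) and rho = -0.88 (p = 0.0031), and r = -0.85 without ORC_202 and ORC_205. ORC_202 was the lowest healthy blood for 5 of the 10 genes and the highest for 2.

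The genes whose deviations from the group means followed these most closely are given as a description, with no p. In fluid (n = 16 libraries, 11212 genes) they were SPECC1 (r = 0.81) and PLEKHG6 (r = 0.80) for TNF, GFI1 (r = 0.83) and SYNJ2 (r = 0.82) for TNFAIP3, and GNA15 (r = 0.92) for NFKBIA, followed by NFKBIE (r = 0.88), which encodes another I-kappa-B inhibitor. In blood (n = 15 libraries, 10538 genes) they were CD38 (r = 0.82) and STAT2 (r = 0.82) for TNF, RALGDS (r = 0.90) and the T cell kinase ZAP70 (r = 0.89) for TNFAIP3, and the mRNA-decay factor ZFP36L2 (r = 0.92) and JUND (r = 0.90) for NFKBIA. The libraries included fluid of ORC_202, far the highest for TNF (3087). They also included blood of OA_1038, far the highest for TNFAIP3 (5635) and NFKBIA (21613). How far these single libraries set the correlations was not tested.

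The other genes of the pathway were grouped by role into 6 lists of 130 genes, and each count is set beside the shares of all genes, which were 14.4% higher and 13.6% lower in fluid and 3.20% higher and 2.20% lower in blood. These shares are those of limma. Over the same genes edgeR called 1947 higher and 2039 lower in fluid and 505 and 302 in blood. DESeq2 called 2509 and 2163 in fluid and 935 and 750 in blood. The first list held ligands of the TNF superfamily other than TNF and genes for their release. Of its 17 genes tested in fluid, 5 were lower in OA (29.4%, against 13.6% of all genes). Only 1 was higher (5.88%, against 14.4%), and the median change was -0.69. FASLG, the ligand of the death receptor FAS, was 317 to 1318 in OA fluid and 1283 to 7147 in healthy fluid (-2.67, SE 0.44, adjusted p = 0.00097), and it is also 1 of the cytotoxic markers counted above. TNFSF14 (LIGHT), a T cell ligand, fell by 2.19 (adjusted p = 0.003). CD40LG, the helper T cell ligand of CD40, fell by 1.77 (adjusted p = 0.00083), with every OA value of CD40LG below every healthy one. Non-overlap of that kind, with all OA fluids below all healthy fluids, was seen for 1.99% of genes. TNFSF10 (TRAIL), a death ligand, fell by 1.39 (adjusted p = 0.006). In blood 2 of 15 genes of this list were lower and 1 was higher. The lymphocyte ligand LTB had a change of -0.76 (adjusted p = 0.0349) and TNFSF11 (RANKL), the osteoclast-inducing ligand, of -2.07 (adjusted p = 0.0341) at only 0 to 7.0 normalized counts in OA blood and 7.74 to 35.7 in healthy blood. Every OA value of TNFSF11 was below the filter on the mean, 10, so this gene was tested only through its healthy values. No conclusion is drawn from its call. TNFSF14 was higher in OA blood, at 416 to 811, against 315 to 446 in healthy blood (0.67, adjusted p = 0.0202), and the difference of its change between the tissues was -2.87 (adjusted p = 0.00038).

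Receptors of the superfamily beyond the TNF receptors moved in both directions in OA fluid, with 5 of 17 lower (29.4%, against 13.6% of all genes) and 3 higher (17.6%, near the 14.4% of all genes), at a median of -1.05. EdgeR called 4 lower and 1 higher, and DESeq2 5 lower and 3 higher. The 4 receptors with the smallest adjusted p, given next, were all lower, and the 3 called higher by limma are not given by value. FAS was 266 to 863 in OA fluid and 822 to 2751 in healthy fluid, a change of -1.44 (SE 0.30, adjusted p = 0.0031). CD27, a costimulatory receptor of T cells, fell by 2.18 (adjusted p = 0.00075), with no overlap between the groups. TNFRSF25, a death receptor of T cells, fell by 1.56 (adjusted p = 0.0099), and TNFRSF14, the receptor of TNFSF14, fell by 1.23 (adjusted p = 0.0111). In blood limma called 1 of 16, TNFRSF4 (OX40, a receptor of activated T cells), at 789.6 to 1645 in OA blood and 1261 to 2142 in healthy blood (-0.56, adjusted p = 0.0481). EdgeR called 0 of the 16 and gave TNFRSF4 an adjusted p of 0.0585. DESeq2 called 2 higher and 3 lower (12.5% and 18.8%), beside 935 higher and 750 lower of all 13072 genes.

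Proteins of the receptor complex and the kinases below it were lower or not called in OA fluid: 11 of 24 (45.8%, against 13.6% of all genes) were lower and 0 were higher (against 14.4%), with a median change of -0.58. EdgeR and DESeq2 each also called 11 lower and 0 higher, and no gene of the list was higher at an unadjusted p under 0.05. TRAF5, an adaptor of several TNF family receptors, was 304 to 619.7 in OA fluid and 694 to 2243 in healthy fluid (-1.68, SE 0.24, adjusted p = 0.00053). CASP8, the initiator caspase of the death-inducing complex, was 672 to 1289.6 in OA fluid and 1592 to 3655 in healthy fluid (-1.27, SE 0.18, adjusted p = 0.00056). TRAF2, which brings BIRC3 to the receptor, fell by 1.31 (adjusted p = 0.00094) and the kinase TBK1 fell by 0.76 (adjusted p = 0.0017). The groups did not overlap for TRAF5, CASP8 or TBK1. In blood limma called 0 of 24 in either direction, with 3 higher and 4 lower at an unadjusted p under 0.05, 0 by edgeR, and 1 higher and 2 lower by DESeq2. The difference between the tissues was called for 10 of 24 (41.7%, against 22.3% of all genes), each a lower change in fluid than in blood.

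None of 9 other Rel subunits and I-kappa-B proteins was called in fluid by limma, where 2 were higher and 0 lower at an unadjusted p under 0.05; edgeR called 0 and DESeq2 1 higher. The subunit genes RELA (-0.33, adjusted p = 0.138) and REL (0.30, adjusted p = 0.483) and the inhibitor gene NFKBIE (0.01, adjusted p = 0.982) are examples, chosen after their values were seen. In blood 0 of 9 were called by limma, edgeR or DESeq2, with 1 at an unadjusted p under 0.05. Of 19 other brakes on TNF signalling, 3 were lower (15.8%, near the 13.6% of all genes) and 0 were higher in OA fluid (median -0.32), with 0 higher by edgeR and DESeq2 and 1 at an unadjusted p under 0.05 in limma. TRAF4, a member of the TRAF adaptor family, had 170.4 to 423 in OA fluid and 356 to 2227 in healthy fluid and fell by 2.03 (adjusted p = 0.0014), with ORC_202 the only healthy fluid below the highest OA value. ZFP36L2, which promotes decay of cytokine mRNAs, fell by 0.96 (adjusted p = 0.0135) and OTULIN, which removes linear ubiquitin chains, fell by 0.68 (adjusted p = 0.0159). In blood 0 of 19 brakes were called by limma, edgeR or DESeq2, with 4 higher and 2 lower at an unadjusted p under 0.05 in limma.

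Known NF-kappa-B target genes did not share 1 direction in OA fluid: 8 of 35 were higher (22.9%, against 14.4% of all genes) and 6 lower (17.1%, against 13.6%), with a median change of 0.44. EdgeR called 5 higher and 5 lower, 14.3% each and near the shares of all genes in limma. DESeq2 called 7 and 7, beside 2509 higher and 2163 lower over all 13885 genes. TNFAIP6, a hyaluronan-binding protein induced by TNF and interleukin-1, was 628 to 7275 in OA fluid and 0 to 438 in healthy fluid, with every OA fluid above every healthy one (5.16, SE 1.06, adjusted p = 0.0033), as was true for 1.57% of all genes. PLAUR, the urokinase receptor, was 5927 to 18042 in OA fluid and 393 to 11954 in healthy fluid (2.94, adjusted p = 0.0039), and CXCL8, the neutrophil chemokine, was 4212 to 17408 in OA fluid and 60.4 to 18921 in healthy fluid (4.34, adjusted p = 0.0051). For both of these the highest healthy value was that of ORC_202, and CXCL8 was not called by edgeR (adjusted p = 0.141) or DESeq2 (adjusted p = 0.110). IRF1, an interferon response factor, was lower, at 1145 to 7471 in OA fluid and 4729 to 22556 in healthy fluid (-2.39, SE 0.36, adjusted p = 0.00057). In blood limma called 1 of 31 targets higher (3.23%, against 3.20% of all genes) and 3 lower (9.68%, against 2.20%). EdgeR called 3 higher and 3 lower, beside 505 and 302 of all 13072 genes. DESeq2 called 5 and 5, beside 935 and 750. The 4 called by limma were PLAUR (1.47, adjusted p = 0.0196), the homing receptor CCR7 (-1.15, adjusted p = 0.0196), the adhesion molecule SELE (-1.91, adjusted p = 0.0265) and STAT5A (-0.30, adjusted p = 0.0477). SELE was at only 2.54 to 17.8 normalized counts in OA blood and 9.35 to 49.5 in healthy blood, so the groups overlapped. Its OA mean was below the filter of 10, so SELE too was tested only through its healthy values. No conclusion is drawn from the call of SELE. The 19 genes named from the lists in fluid kept their calls in all 16 fits that left out 1 library, and ORC_202 was the lowest healthy fluid for 10 of the 19. The 8 genes named in blood lost their calls in 2 (CCR7), 3 (PLAUR and TNFSF14), 5 (SELE), 6 (LTB), 8 (TNFSF11) and 11 (STAT5A and TNFRSF4) such fits. TNFSF11 passed the filter on low values in 13 of these fits, and the other named genes in 15. Each of the 8 was lost without OA_3850 and without OA_9570, and the highest adjusted p per gene was 0.0602 (CCR7) to 0.139 (STAT5A). With the T cell marker mean as a covariate the fluid changes were -0.70 for FASLG, -0.64 for CASP8, -1.85 for IRF1 and 1.78 for TNFAIP6, none of them called. With the monocyte marker mean as a covariate the blood change of PLAUR was 0.08 and that of LTB -0.13, neither of them called.

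**Figure D5:**
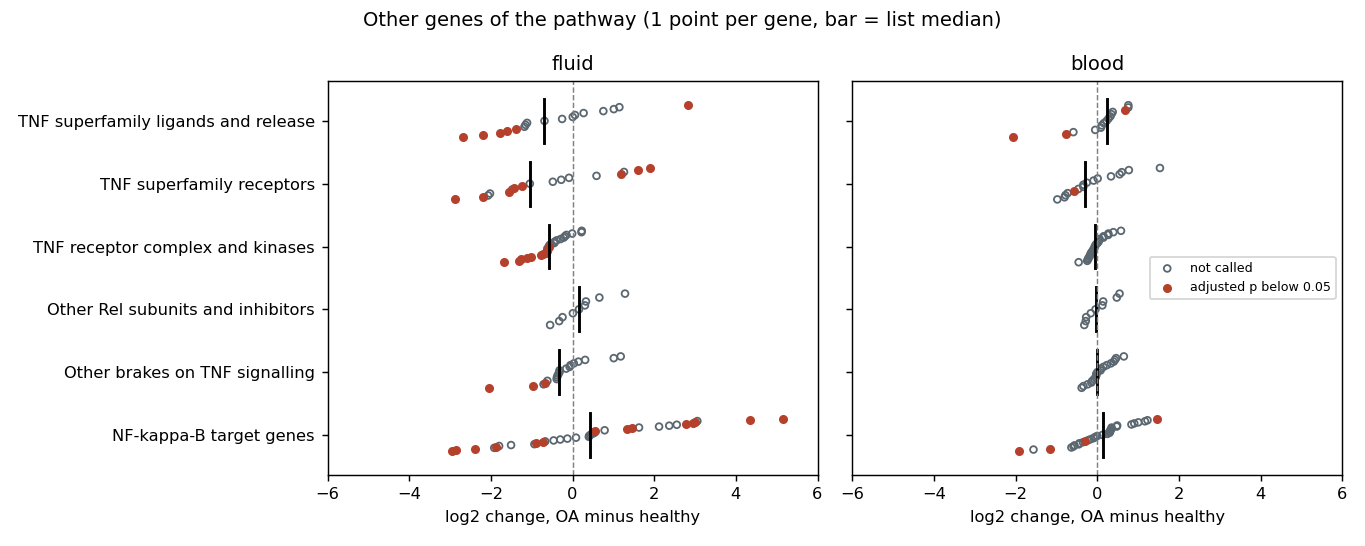
Log2 change (OA minus healthy) of each tested gene of 6 pathway lists in fluid and in blood, with filled points where limma's adjusted p was below 0.05 and a bar at the list median. In fluid the receptor complex list lies to the left of 0, with 11 of 24 genes lower, while the target genes spread to both sides, with 8 higher and 6 lower.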

How the data were processed

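The authors deposited 1 table for fluid and 1 for blood, each holding a normalized signal (reads of a gene over the size factor of the library). The submitters' processing notes name Partek, cutadapt, STAR 2.7.3, HTSeq, DESeq and EquCab3.0; no settings were given. Low values were whole multiples of 1 read, which gave back the reads (99.87% to 99.98% of values whole within 0.1 read) and the depth of 31 libraries. No 2 libraries were near copies (smallest chi-square per gene 113 in fluid and 37.6 in blood), and 0 columns of values were left unused. Coordinates are those of the blood table.

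Genes averaging 10 or more entered limma (version 3.58.1, R 4.3.3) as log2(value + 1), separately per tissue, using a variance trend and robust moderation, two-sided tests and Benjamini-Hochberg adjustment over all genes. The difference between tissues used 4 group means and weights per tissue. This main fit did not pair the fluid and blood of the same horse, and the replicate block was the paired alternative. edgeR 4.0.16 and DESeq2 1.42.0 were run on the recovered reads as alternatives, beside other scalings, pseudocounts (0.5 and 8), filters, thinning, marker covariates and leaving out libraries. Horse numbers in the titles paired fluid and blood: deviations of same-numbered samples correlated at 0.12 to 0.39 in 13 of 13 horses over 12733 genes. The fits were also run on simulated reads with known changes, and the outcome is not given here. That simulation held no shift in cell types or handling between the groups, so it does not cover such shifts. Genes named from the pathway lists are up to 4 per list and tissue with the smallest adjusted p past the threshold. Members and lists were chosen with earlier results of these data known, and the labels give no batch.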

Additional observations from a re-analysis of the deposited data

Results flagged for a closer look

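In blood of OA horses the gap between OA_1038 and its nearest neighbour took up 0.771 of the whole range of log2 TNFAIP3 and 0.626 of that of log2 NFKBIA (n = 6 horses; critical value 0.625). In fluid of OA horses OA_2615 stood apart at the low end for FAS (0.798) and TNFRSF25 (0.791), and OA_9570 at the high end for IRF1 (0.759; n = 5, critical value 0.71). In OA blood OA_9350 was apart as the lowest value of CCR7 (0.67). In healthy blood ORC_209 was apart as the lowest value of PLAUR (0.572) and ORC_202 as the lowest of STAT5A (0.591; n = 9, critical value 0.493). Chance alone flags about 1 in 20 groups, and 8 of 74 groups were flagged.

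The OA change differed between fluid and blood, by limma's test of the difference itself, for 22.3% of all 12733 genes, for 2 of the 10 genes of the set and for 29 of 112 genes of the pathway lists (25.9%). In the gene set these were TNFAIP3 (-1.63) and BIRC3 (-0.97), each given as the change in fluid minus the change in blood on the log2 scale. Of the 29 list genes, only the 17 already named above for a call within fluid or blood are given by value. In the list of ligands and genes for their release, with 4 of 15 called, they were TNFSF14 (-2.87), FASLG (-2.95), CD40LG (-1.86) and TNFSF10 (-1.55). Among receptors, with 5 of 16 called, they included FAS (-1.78), CD27 (-1.72), TNFRSF25 (-1.21) and TNFRSF14 (-0.97). In the receptor complex, with 10 of 24 called, they included TRAF5 (-1.22), CASP8 (-1.20), TRAF2 (-1.11) and TBK1 (-0.66). Among the brakes, with 4 of 19 called (1 higher and 3 lower), they included TRAF4 (-1.69), ZFP36L2 (-1.40) and OTULIN (-0.76), and among the targets, with 5 of 29 called (3 higher and 2 lower), IRF1 (-2.39) and TNFAIP6 (3.99).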

How the results depend on the processing

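BIRC3 was called lower in fluid under every alternative except the T cell and the immediate early covariates. TNFAIP3 lost its call with each of the 4 marker covariates and without OA_2615. TNF kept its call in fluid under 17 alternatives and lost it under 15. The number of the 10 genes lower in fluid, 3, became 5 after scaling to equal totals and with weights per library, 1 with the fibroblast covariate and 0 with the T cell or the immediate early covariate, and was 1 to 4 when 1 library was left out. The number higher in fluid, 0, became 2 with weights per library (NFKB1 and TNFRSF1A) and was 0 to 1 with 1 library left out. The number higher in blood, 2, became 1 with no filter or without trend and robust variance, 0 with the T cell or the monocyte covariate and 0 without OA_9570 and ORC_202 together, and was 0 to 2 with 1 library left out. The cause of these shifts was not tested.

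No change that turned sign was called after the turn. The main changes of FAS and TNFRSF25 in fluid and of TNFRSF1A and TNFRSF1B in blood had been called, and the others had not. In fluid the immediate early covariate gave -0.10 for NFKB1 and 0.074 for RELB. There the T cell covariate gave 0.021 for TRAF1, -0.48 for TNFRSF1A, -0.58 for TNFRSF1B, 0.020 for FAS and 0.41 for TNFRSF25. The monocyte covariate gave -0.061 for TNFRSF1A and -0.37 for TNFRSF1B in fluid. TNFRSF1B was also -0.088 in fluid after scaling to equal totals, -0.0095 with weights per library and -0.16 without OA_9570 and ORC_202 together. In blood TNF was 0.028 with weights per library, and the monocyte covariate gave 0.10 for BIRC3, 0.15 for NFKB2, 0.084 for RELB, 0.15 for TRAF1, -0.16 for TNFRSF1A and -0.0033 for TNFRSF1B. With the replicate block the differences between tissues were 0.018 for NFKB2 and 0.052 for RELB; the block added TNF to the called differences, as given above, and changed no other call of the 10 genes. With 1 library or horse left out, changes ranged from -0.17 to 0.32 for TNFRSF1B in fluid, and in blood from -0.15 to 0.072 for TNF, -0.041 to 0.33 for TNFAIP3 and -0.15 to 0.28 for NFKBIA. Differences then ranged from -0.34 to 0.13 for NFKB2, -0.20 to 0.16 for RELB and -0.19 to 0.094 for TNFRSF1A, and in blood the ratio log2 NFKB2 over NFKB1 from -0.14 to 0.021 and log2 TNFAIP3 over NFKBIA from -0.021 to 0.15.

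Over all genes limma called 2006 higher and 1893 lower in fluid, but 3654 and 2981 with weights per library, 1206 and 842 with the monocyte covariate, 509 and 723 with the fibroblast covariate, and 0 and 0 with the T cell or the immediate early covariate. In blood it called 418 higher and 288 lower, but 1370 and 942 with weights, 935 and 750 by DESeq2, 270 higher without trend and robust variance, 27 and 24 with the T cell covariate, 0 and 0 with the monocyte covariate, and 229 and 210 without OA_9570 and ORC_202 together. Leaving out 1 blood library gave 14 to 690 higher and 17 to 519 lower: 16 and 17 without OA_3850, 17 and 18 without OA_9350, 14 and 17 without OA_9570, 146 and 78 without ORC_207, 159 and 101 without ORC_208, 203 and 97 without ORC_200, 690 and 457 without OA_1038, and 690 and 519 without ORC_202. In fluid the counts were 1208 and 1298 without OA_2615 and 1288 and 1461 without OA_3850. Thinning the reads to the smallest library gave 2007 higher and 1877 lower in fluid and 398 and 274 in blood.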
